A study of Mus musculus with 6 samples.

Results

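The genes described here make, coat and break down stored triglyceride in heart cells: Gpam, Agpat2, Lpin1, Dgat1 and Dgat2 (synthesis), Plin2 (droplet coat), and Pnpla2, Lipe and Mgll (lipases). They were chosen by name, with earlier results of these data known, as the probe sets with 1 of these symbols in the platform annotation. All 9 genes were found, with 18 probe sets among the 45101 of the array, and the probe set of highest mean represented each gene. All 9 passed the filter on dim genes and were among the 11254 genes tested. RNA came from hearts of male mice aged 2 months in a B6 background, on 2 arrays for each of 3 groups. The RKIP-transgenic line was described as expressing RKIP from the alpha-MHC promoter, which is active in cardiac muscle cells. RKIP is a protein that blocks the RAF kinase and the G-protein-coupled receptor kinases (GRKs). The GRK-Inh-transgenic line was described as making a GRK-specific peptide inhibitor in the myocardium, and B6 control mice were wild type. Whether both arrays of a group stand for different mice, and how many founders a line had, is not stated in the labels. The p-values therefore measure the spread between these samples, which may be technical.

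As background, triglyceride is built stepwise on glycerol-3-phosphate. GPAM adds the first fatty acid, AGPAT enzymes the next, lipin phosphatases remove the phosphate, and DGAT enzymes add the last fatty acid. The product is kept in droplets coated by perilipins such as PLIN2. ATGL (the product of Pnpla2), hormone-sensitive lipase (Lipe) and monoglyceride lipase (Mgll) then remove the fatty acids in turn. In the heart this pool buffers fatty acids on their way to oxidation, and adipocytes around the heart express the same enzymes. In whole-heart RNA, fewer cells of a type and less RNA per cell cannot be told apart.

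The scaled arrays had median signals of 50.4 to 55.2. The cardiomyocyte markers fixed for the tissue check (Myh6, Tnnt2, Tnni3, Actc1, Mb and Ryr2) had main signals of 9416 to 39466, and of these only Actc1 was called in any comparison (-0.12 in RKIP-labelled against control hearts, adjusted p = 0.0326). The 4 skeletal muscle markers had main signals of at most 30.2. Actin control probes, read as 3' over 5' signal, gave 2.92 to 3.03 on the transgenic arrays and 3.11 to 3.25 on the control arrays. Pebp1, the mouse gene of RKIP, had signals of 9102 and 9140 in the RKIP-transgenic hearts and of 9292 and 8766 in the controls (log2 fold change 0.015 ± 0.041 SE, limma adjusted p = 0.866). The other Pebp1 probe set, 1415950_a_at, had 5912 and 5567 in the RKIP-transgenic hearts against 5284 and 5622 in the controls. The labels do not say which species' RKIP the transgene carries. A transgene of another species, or without the probed end of the transcript, could escape these probes. The signal therefore cannot decide whether the transgene was expressed, and the name RKIP-labelled is used for the group.

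**Figure D1:**
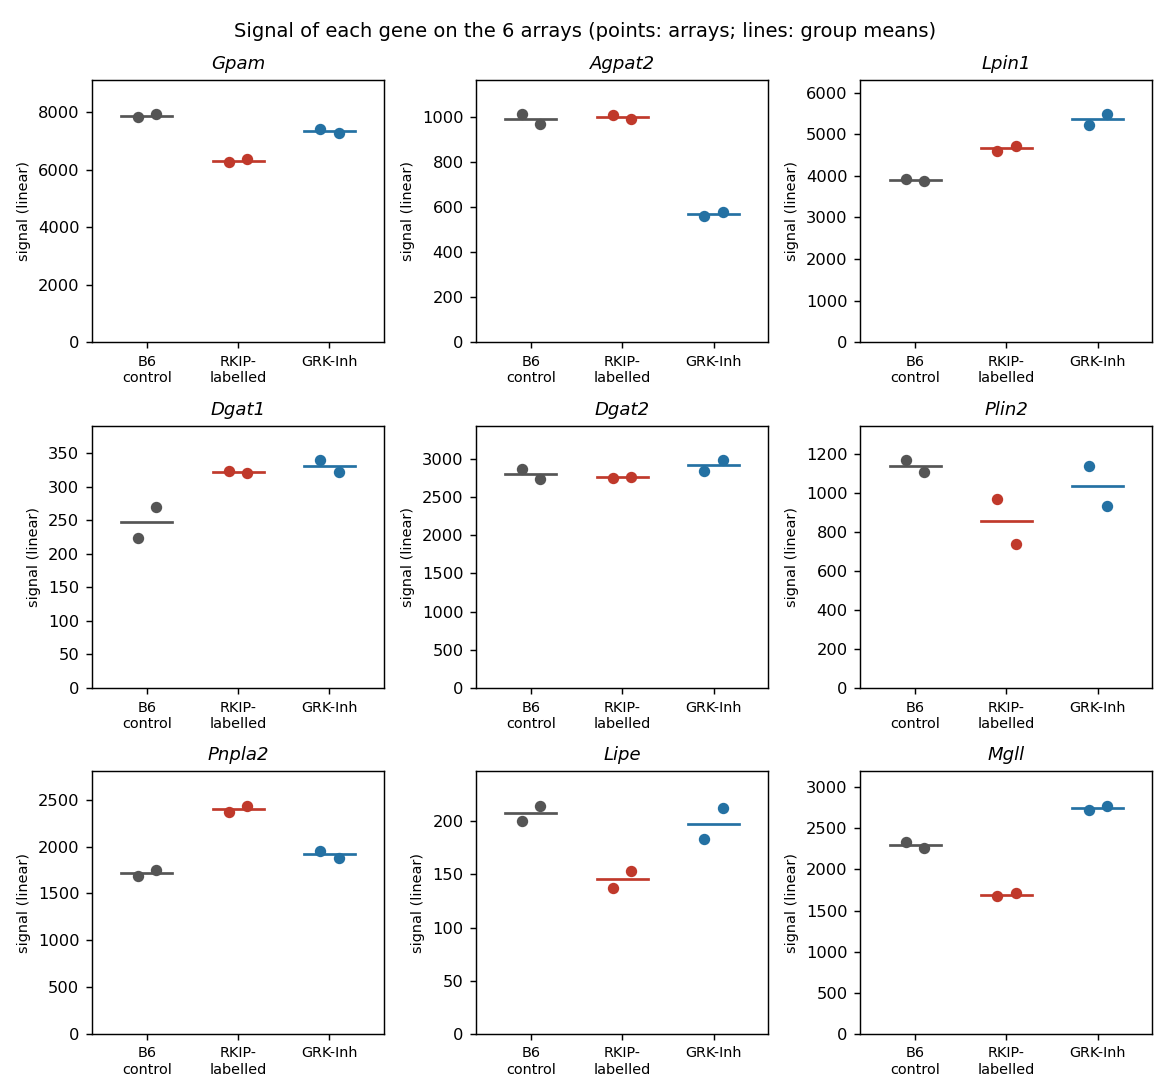
Signal (linear, author-scaled) of the main probe set of each of the 9 genes on the 6 arrays, with 1 point an array and a line at each group mean. Agpat2 stood at 558 and 579 in GRK-Inh hearts against 970 to 1012 on the other 4 arrays, and Mgll was lowest in RKIP-labelled and highest in GRK-Inh hearts.

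Lpin1 rose in both lines, Mgll was called in opposite directions, and the other calls against control were in 1 line each. In RKIP-labelled against control hearts, Pnpla2 and Lpin1 rose and Gpam and Mgll fell, which is 4 of 9 genes at an adjusted p under 0.05 (limma with Benjamini-Hochberg adjustment over all genes tested). Of all genes tested 10.8% were called, 5.32% higher and 5.51% lower. In GRK-Inh against control hearts, Lpin1 and Mgll rose and Agpat2 fell, 3 of 9 beside 13.1% of all genes (5.86% higher and 7.27% lower). Between the transgenic lines 5 of 9 differed, beside 8.82% of all genes (4.47% higher and 4.35% lower): Agpat2 and Pnpla2 were higher in RKIP-labelled hearts, and Gpam, Lpin1 and Mgll were higher in GRK-Inh hearts. The median log2 fold change of the 9 genes was -0.019 and 0.057 in the comparisons with control and -0.20 between the lines. Over all genes tested the medians were -0.017, -0.031 and 0.021. The comparisons with control share the control arrays, so their values stand side by side and are not independent.

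**Figure D2:**
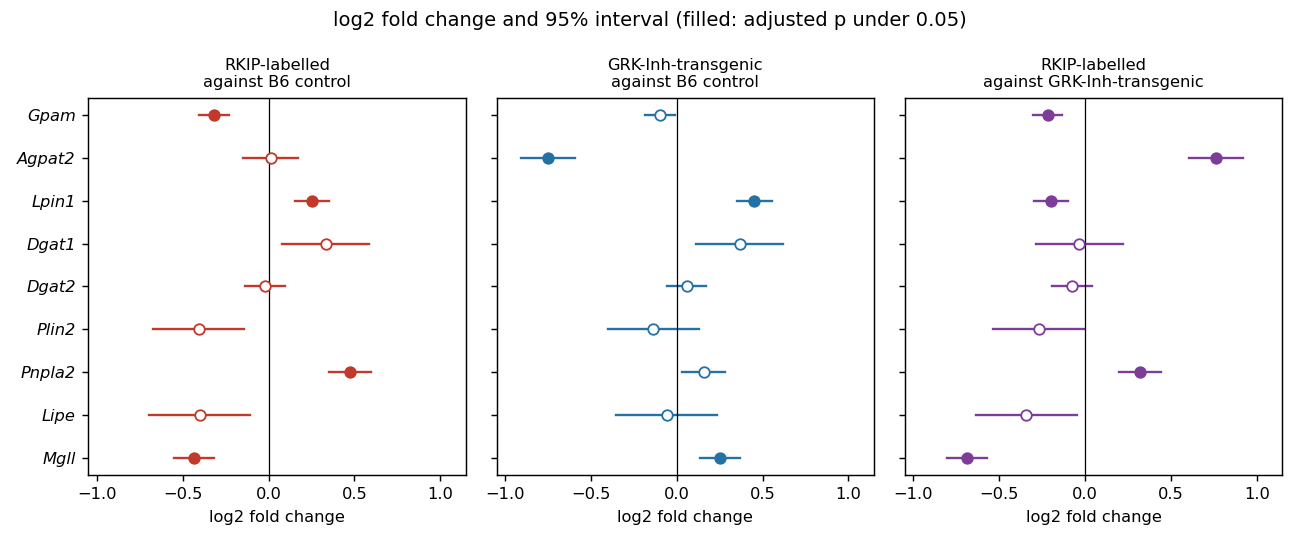
log2 fold change of each gene with its 95% interval in the 3 comparisons, on the scale of log2 of the signal plus 50. Filled points had an adjusted p under 0.05, namely 4, 3 and 5 of the 9 genes from left to right, and the Mgll intervals lie on opposite sides of 0 in the comparisons with control.

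RefSeq promoter windows of GRCm38.p6, from 250 bases before to 50 after an annotated start, were matched for 7 of the 9 genes, 10 windows in all. Windows of 4 genes that changed are printed, because they show where these genes differ in the letters searched. Capitals mark the matches of AGGTCA, the core site of nuclear receptors, or of CACGTG, the E-box. Gpam is shown at chr19:55099428-55099727 (minus strand), its start with a match, Agpat2 at chr2:26604368-26604667 (minus), Lpin1 at chr12:16610917-16611216 (minus) and Mgll at chr6:88724162-88724461 (plus), the upstream of its 2 starts.
Gpam: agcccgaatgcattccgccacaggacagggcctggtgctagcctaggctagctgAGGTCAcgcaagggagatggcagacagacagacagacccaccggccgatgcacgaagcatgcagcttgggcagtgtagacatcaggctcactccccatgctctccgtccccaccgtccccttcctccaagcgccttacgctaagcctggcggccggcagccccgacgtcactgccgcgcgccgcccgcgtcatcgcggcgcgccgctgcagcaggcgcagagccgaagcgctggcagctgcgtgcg
Agpat2: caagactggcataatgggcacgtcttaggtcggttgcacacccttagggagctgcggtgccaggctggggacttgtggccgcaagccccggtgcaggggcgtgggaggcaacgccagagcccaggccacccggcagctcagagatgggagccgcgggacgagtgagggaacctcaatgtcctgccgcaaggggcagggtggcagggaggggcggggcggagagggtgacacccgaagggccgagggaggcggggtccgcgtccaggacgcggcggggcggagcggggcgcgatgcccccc
Lpin1: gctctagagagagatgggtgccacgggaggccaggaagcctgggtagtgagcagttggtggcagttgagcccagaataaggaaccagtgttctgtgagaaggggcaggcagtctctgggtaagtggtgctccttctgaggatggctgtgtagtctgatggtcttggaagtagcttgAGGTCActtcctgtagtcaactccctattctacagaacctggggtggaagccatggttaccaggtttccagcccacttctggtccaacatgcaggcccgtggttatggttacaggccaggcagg
Mgll: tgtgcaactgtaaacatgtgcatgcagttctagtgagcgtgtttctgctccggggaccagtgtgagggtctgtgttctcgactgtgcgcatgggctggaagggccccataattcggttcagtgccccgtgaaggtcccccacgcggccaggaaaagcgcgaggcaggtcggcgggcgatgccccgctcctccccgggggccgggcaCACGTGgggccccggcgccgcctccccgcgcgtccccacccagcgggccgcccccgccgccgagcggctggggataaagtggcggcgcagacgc
AGGTCA, read on both strands, was found in 3 of the 10 windows (Gpam, Lpin1 and Plin2), beside 16.3% of the 32851 windows of all genes. CACGTG, which reads the same on both strands, was in 3 of the 10 (Plin2, Lipe and Mgll), beside 7.15% of all windows. The match lies 196 bases before the start in Gpam, 74 in Lpin1 and 44 in Mgll. None of the 10 windows held TCACNCCAC, a core sterol element (1.24% of all windows), the DR1 consensus of PPARs, a direct repeat of AGGTCA with 1 base between (0.0396%), or the palindromic glucocorticoid consensus (0.00913%), all read on both strands. No searched motif was in the Agpat2 window, nor in the Pnpla2 window and the other Gpam and Mgll windows, which are not printed. A match is only a run of letters in the window.

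Gpam, which encodes the mitochondrial acyltransferase of the first step, fell in the RKIP-labelled hearts. Its signals were 6275 and 6368 there, 7425 and 7294 in GRK-Inh hearts and 7829 and 7943 in controls. The 3 groups did not overlap, with the RKIP-labelled arrays lowest and the controls highest. The log2 fold change was -0.32 ± 0.039 (± SE, n = 2 per group, adjusted p = 5.20e-04) in RKIP-labelled against control hearts. GRK-Inh hearts were not called against controls (-0.099 ± 0.039, adjusted p = 0.123, 95% interval -0.19 to -0.013). RKIP-labelled hearts were also lower than GRK-Inh hearts (-0.22 ± 0.039, adjusted p = 0.00625). That difference lost its call without GRK-Inh array 1 (adjusted p = 0.0600) and with the mean of both probe sets (adjusted p = 0.155), and without a variance trend neither was called (0.0721 against control and 0.148 between the lines). The dimmer Gpam probe set 1425834_a_at, with signals of 82.9 to 143, had a like value against control in RKIP-labelled hearts (-0.31 ± 0.16) and was not called (adjusted p = 0.288).

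Agpat2 had the widest range of group means of the 9 genes, 0.76 on the log2 scale. It encodes the acyltransferase that adds the next fatty acid, and loss of the human gene causes congenital lipodystrophy. Signals were 558 and 579 in GRK-Inh hearts, 1009 and 990 in RKIP-labelled hearts and 1012 and 970 in controls. Only the GRK-Inh arrays stood apart, while the RKIP-labelled and control arrays overlapped. The mean GRK-Inh signal of 569 ± 14.7 (SD, n = 2) was 0.574 of the control mean of 991 ± 30.1. The log2 fold change was -0.75 ± 0.072 in GRK-Inh against control hearts (adjusted p = 6.99e-05) and 0.76 ± 0.072 in RKIP-labelled against GRK-Inh hearts (adjusted p = 1.01e-04). In RKIP-labelled against control hearts it was 0.012 ± 0.072 (adjusted p = 0.947), with a 95% interval of -0.15 to 0.17. The annotation gave Agpat2 a single probe set, 1428821_at, so no other probe set bears on these values.

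Of the other tested genes whose group means spanned at least 0.5 of the Agpat2 range (2344 genes), the 3 with the most similar pattern over the 6 arrays were Tnfrsf19, Rab4a and Srsf5. Likeness was the root mean square difference of centred log2 values, which was 0.052, 0.052 and 0.063. Srsf5, the gene of a splicing factor, had signals of 2247 and 2262 in GRK-Inh hearts, 4221 and 3993 in RKIP-labelled hearts and 4236 and 4213 in controls. Rab4a, the gene of an endosomal GTPase, had 110 and 111 in GRK-Inh hearts against 214 to 241 on the other arrays, and Tnfrsf19, the gene of a TNF receptor family member, 65.0 and 74.6 against 144 to 162.

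Lpin1, which encodes the phosphatidate phosphatase lipin 1 and also acts with PGC-1alpha in the nucleus, rose in both lines. Signals were 4599 and 4723 in RKIP-labelled hearts, 5229 and 5489 in GRK-Inh hearts and 3923 and 3881 in controls. Every transgenic array was above both controls, and the GRK-Inh arrays were highest. The log2 fold change was 0.25 ± 0.046 in RKIP-labelled (adjusted p = 0.00547) and 0.45 ± 0.046 in GRK-Inh hearts (adjusted p = 9.97e-05), each against control. The other Lpin1 probe set, 1418288_at, was called in the same direction in both lines (0.32 ± 0.062, adjusted p = 0.0122, and 0.55 ± 0.062, adjusted p = 3.35e-04, in the fit over all probe sets). Between the lines the difference of -0.20 ± 0.046 (adjusted p = 0.0228) lost its call without each of the 4 arrays in turn (adjusted p 0.0550 to 0.165). Without a trend in the variance neither it (adjusted p = 0.188) nor the RKIP-labelled rise (adjusted p = 0.117) was called.

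The final acylation genes did not pass in any comparison. Dgat1 had signals of 324 and 321 in RKIP-labelled hearts, 340 and 322 in GRK-Inh hearts and 223 and 270 in controls, so all 4 transgenic arrays were above both controls. Its log2 fold change was 0.33 ± 0.11 (adjusted p = 0.0977) in RKIP-labelled and 0.37 ± 0.11 (adjusted p = 0.0617) in GRK-Inh hearts. The 95% intervals, which are not adjusted over genes, were 0.077 to 0.59 and 0.11 to 0.62, and between the lines -0.29 to 0.22. The Dgat1 probe set ends in _s_at, the maker's mark for probes that can match more than 1 transcript. Dgat2 lay between 2735 and 2991 on all 6 arrays, with groups that overlapped. Its 95% intervals ran from -0.13 to 0.097 in RKIP-labelled and from -0.059 to 0.17 in GRK-Inh hearts against control, and from -0.19 to 0.040 between the lines. The dimmer Dgat2 probe set, 1422677_at, lay between 761 and 853 and was not called either.

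Plin2, the gene of the droplet coat protein adipophilin, had signals of 969 and 740 in RKIP-labelled hearts, 1138 and 935 in GRK-Inh hearts and 1170 and 1109 in controls. The RKIP-labelled arrays were both below the controls, but the spread within the transgenic groups was wide (SD 162 and 144, against 43.5 in controls). The log2 fold change of -0.41 ± 0.12 in RKIP-labelled hearts was not called (adjusted p = 0.0552, 95% interval -0.67 to -0.14). Its size moved with the RKIP-labelled array kept, from -0.59 without array 1 (adjusted p = 0.0125) to -0.22 without array 2 (adjusted p = 0.288). With both arrays of each compared group kept, it also passed under 3 other settings (adjusted p 0.0145 to 0.0486). In GRK-Inh hearts it was -0.14 ± 0.12 (adjusted p = 0.508, 95% interval -0.40 to 0.13), with -0.27 without array 1 of that line and -0.0015 without array 2. Between the lines it was -0.27 ± 0.12 (adjusted p = 0.208), and from -0.45 without RKIP array 1 (adjusted p = 0.0473) to -0.086 without RKIP array 2 (adjusted p = 0.739).

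Among the lipases, Pnpla2 rose in the RKIP-labelled hearts. It encodes ATGL, which starts triglyceride breakdown. Signals were 2372 and 2438 in RKIP-labelled hearts, 1953 and 1882 in GRK-Inh hearts and 1685 and 1748 in controls. The 3 groups did not overlap, with RKIP-labelled hearts highest and controls lowest. The log2 fold change was 0.48 ± 0.056 in RKIP-labelled against control hearts (adjusted p = 3.79e-04), a mean signal 1.40 times that of controls. GRK-Inh hearts were not called against controls (0.16 ± 0.056, adjusted p = 0.0944, 95% interval 0.033 to 0.28). RKIP-labelled hearts were above GRK-Inh hearts (0.32 ± 0.056, adjusted p = 0.00547). That difference was not called when the variance had no trend (adjusted p = 0.0805). A dim Pnpla2 probe set, 1428591_at, ran the other way. It gave 3.94 and 3.09 in RKIP-labelled, 20.4 and 22.8 in GRK-Inh and 60.5 and 27.6 in control hearts, with a mean level below the filter (a signal of 50.2), and was not tested on its own. Averaged with it, Pnpla2 was not called and its sign turned (-0.16, adjusted p = 0.365, in RKIP-labelled against control hearts).

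Lipe is the gene of hormone-sensitive lipase. Its signals were 137 and 154 in RKIP-labelled hearts, 183 and 212 in GRK-Inh hearts and 201 and 215 in controls. RKIP-labelled arrays were below all others, and the other groups overlapped. Neither the difference of -0.40 ± 0.13 from control (adjusted p = 0.0841, 95% interval -0.69 to -0.11) nor that of -0.34 ± 0.13 from GRK-Inh hearts (adjusted p = 0.150) was called. GRK-Inh hearts differed from control by -0.060 ± 0.13 (adjusted p = 0.817, 95% interval -0.35 to 0.23).

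Mgll moved in opposite directions in the lines. It encodes monoglyceride lipase, which releases the last fatty acid and also breaks down the endocannabinoid 2-arachidonoylglycerol. Signals were 1672 and 1710 in RKIP-labelled hearts, 2727 and 2779 in GRK-Inh hearts and 2338 and 2263 in controls, so that no groups overlapped. Mgll fell in RKIP-labelled hearts (-0.43 ± 0.053, adjusted p = 4.99e-04) and rose in GRK-Inh hearts (0.25 ± 0.053, adjusted p = 0.00921), each against control. Between the lines the difference was -0.69 ± 0.053 (adjusted p = 2.17e-05), and the mean signal of RKIP-labelled hearts was 0.614 of that of GRK-Inh hearts. Of the 4 Mgll probe sets, the 3 above the filter gave like values between the lines (-0.69, -0.65 and -0.62), and all were called there and in RKIP-labelled against control hearts. The rise in GRK-Inh hearts was called by the main probe set only. The others gave 0.24 (adjusted p = 0.0990) and 0.21 (adjusted p = 0.120), and the main call was lost without GRK-Inh array 2 (adjusted p = 0.0677) and without B6 array 2 (adjusted p = 0.0595). It was also lost with the mean of all 4 probe sets (0.12, adjusted p = 0.353) and without a variance trend (adjusted p = 0.0869). The main probe set also ends in _s_at.

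**Figure D3:**
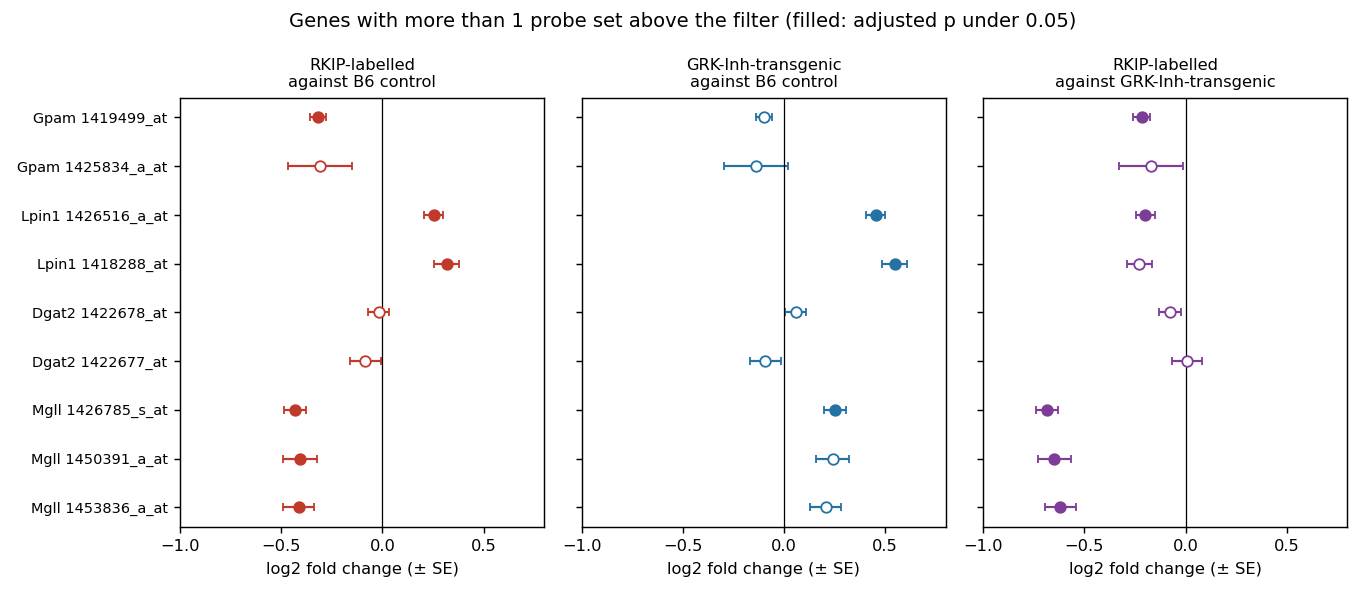
log2 fold change ± SE of every probe set above the filter for the 4 genes with more than 1 such probe set, from the fit over all probe sets, in the 3 comparisons. Filled points had an adjusted p under 0.05. The 3 Mgll probe sets lie together at -0.69 to -0.62 between the lines, and the Lpin1 probe sets both rose in each line against control.

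Other genes of the same steps were read from a list of 29. Of these, 27 matched a probe set of a single symbol in the annotation, and 22 were tested. Plin1 and Gk had no such match and were not analysed here. In RKIP-labelled against control hearts, 3 of 22 rose and 1 fell (5.32% and 5.51% of all genes), with a list median of 0.018 on the log2 scale. In GRK-Inh against control hearts 3 of 22 rose and 0 fell (5.86% and 7.27% of all genes), with a median of 0.069. Between the lines 3 were higher and 2 lower in RKIP-labelled hearts (4.47% and 4.35% of all genes), with a median of -0.0038. The called genes were Plin3, Plin4, Plin5, G0s2, Cidea, Gpat3 and Agpat3.

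Plin3, which encodes a perilipin that coats small droplets, rose in both lines. Signals were 2793 and 2688 in RKIP-labelled hearts, 2222 and 2079 in GRK-Inh hearts and 1636 and 1476 in controls. No groups overlapped, and the log2 fold change was 0.80 ± 0.065 (adjusted p = 3.09e-05) in RKIP-labelled and 0.46 ± 0.065 (adjusted p = 0.00102) in GRK-Inh hearts. RKIP-labelled hearts were also above GRK-Inh hearts (0.34 ± 0.065, adjusted p = 0.00860). This difference was not called without RKIP array 1 or GRK-Inh array 2, nor without a variance trend (adjusted p = 0.103). Plin4, another perilipin gene, rose in GRK-Inh hearts (0.37 ± 0.067, adjusted p = 0.00391), where its signals were 1831 and 1717 against 1417 and 1301 in controls. Without a variance trend it was not called (adjusted p = 0.0553). Plin5, the perilipin of oxidative muscle that binds ATGL and its coactivator, was lower in RKIP-labelled than in GRK-Inh hearts (-0.28 ± 0.063, adjusted p = 0.0215), with signals of 2940 and 2739 against 3256 and 3660. The Plin5 difference was not called without RKIP array 2, without GRK-Inh array 2, with no filter or without a variance trend. The other Plin5 probe set, 1424937_at, gave -0.29 ± 0.068 between the lines (adjusted p = 0.0311) and was also called in GRK-Inh against control hearts (0.28 ± 0.068, adjusted p = 0.0249), where the main one was not (0.18, adjusted p = 0.0868).

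G0s2, which encodes the protein inhibitor of ATGL, rose in GRK-Inh hearts, to 3087 and 3100 from 2542 and 2550 in controls (0.28 ± 0.048, adjusted p = 0.00344, and 0.0681 without a variance trend). RKIP-labelled hearts had 2580 and 2620, and the difference between the lines was -0.25 ± 0.048 (adjusted p = 0.0104). That difference lost its call without 3 of the 4 arrays (RKIP array 1 and either GRK-Inh array) and without a variance trend (adjusted p = 0.119). Abhd5, the ATGL coactivator, was not called by its main probe set. A second Abhd5 probe set, 1417566_at, named after its values were seen, had 561 and 570 in RKIP-labelled, 572 and 561 in GRK-Inh and 443 and 436 in control hearts. It was called in both lines in the fit over all probe sets (0.33 ± 0.084, adjusted p = 0.0384, and 0.33 ± 0.084, adjusted p = 0.0301). Lpl, the gene of lipoprotein lipase, was likewise called only by a second probe set, 1431056_a_at, with 28192 and 28920 in RKIP-labelled, 25268 and 24750 in GRK-Inh and 24946 and 24411 in control hearts. It was higher in RKIP-labelled hearts than in controls (0.21 ± 0.033, adjusted p = 0.00353) and than in GRK-Inh hearts (0.19 ± 0.033, adjusted p = 0.00707).

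Cidea, whose protein fuses droplets and which is also on the list of brown adipocyte markers, rose in RKIP-labelled hearts, to 1171 and 1238 from 919 and 940 (0.36 ± 0.067, adjusted p = 0.00723). This call was lost without RKIP array 2 and without B6 array 1, and also without a variance trend (adjusted p = 0.0651). Its difference between the lines (0.25 ± 0.067, adjusted p = 0.0460) was lost under 10 of 15 alternatives, among them each array left out. Gpat3, a gene of the first acylation step in the endoplasmic reticulum, fell in RKIP-labelled hearts, as Gpam did (-0.52 ± 0.11, adjusted p = 0.0152). Its signals were 509 and 631 there, 691 and 711 in GRK-Inh hearts and 917 and 755 in controls, and the call was lost without RKIP array 1 and without B6 array 1 (adjusted p = 0.133). Agpat3, of the same family as Agpat2, rose in RKIP-labelled hearts by its main probe set (0.43 ± 0.070, adjusted p = 0.00303), whereas its other 3 tested probe sets were at -0.15 to -0.12 and not called. That rise lost its call without a variance trend and with the mean of all probe sets. In RKIP-labelled against GRK-Inh hearts 2 Agpat3 probe sets were called in opposite directions, so no direction is given for the gene.

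**Figure D4:**
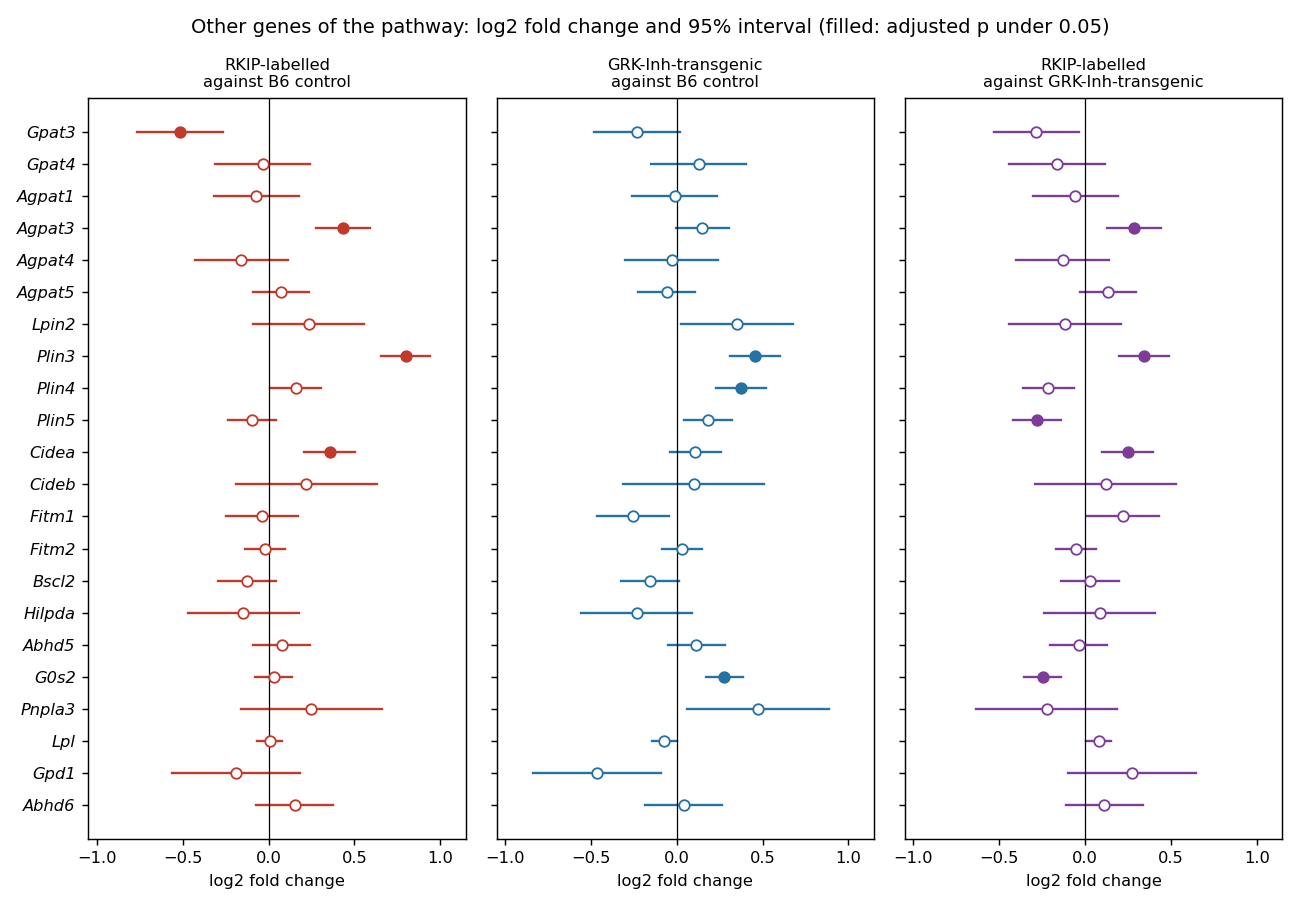
log2 fold change with 95% interval of the 22 tested genes of the same pathway outside the 9, in the 3 comparisons, filled where the adjusted p was under 0.05. Plin3 is right of 0 in the first and second panels (0.80 and 0.46), and most intervals include 0.

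White adipocytes express these enzymes strongly, so markers of adipocytes were read on the same arrays. Of a list of 8 markers, 6 matched a probe set of a single symbol in the annotation, and 4 were tested. Plin1 and Cfd had no such match and were not analysed here. In RKIP-labelled against control hearts 0 of 4 rose and 3 fell (5.32% and 5.51% of all genes). In GRK-Inh against control hearts 0 rose and 1 fell (5.86% and 7.27% of all genes). Between the lines 0 were higher and 2 lower in RKIP-labelled hearts (4.47% and 4.35% of all genes). Fabp4, a fatty acid binding protein gene also expressed by endothelium, had the highest signals of the list, 18297 and 19203 in RKIP-labelled, 18997 and 19522 in GRK-Inh and 22680 and 21564 in control hearts. It fell in both lines (-0.24 ± 0.039, adjusted p = 0.00315, and -0.20 ± 0.039, adjusted p = 0.00621). The fall in GRK-Inh hearts was not called without GRK-Inh array 1, without B6 array 1 or with the mean of all probe sets. Without a variance trend Fabp4 was called in neither line (adjusted p = 0.141 in RKIP-labelled hearts). A dimmer Fabp4 probe set, 1451263_a_at, had 9647 and 12102 in GRK-Inh hearts against 9749 and 10612 in controls. Probe set 1424155_at was lower there, with 265 and 283 against 402 and 396 in controls. Probe set 1425809_at had 480 and 420 in GRK-Inh hearts against 477 and 553 in controls. Adipoq, the gene of adiponectin, had signals of 88.8 and 80.8 in RKIP-labelled hearts, 434 and 260 in GRK-Inh hearts and 288 and 307 in controls. It fell in RKIP-labelled hearts (-1.37 ± 0.18, adjusted p = 9.43e-04), as did Car3, an abundant gene of fat and muscle, from 3412 and 3212 to 1019 and 1073 (-1.62 ± 0.070, adjusted p = 3.75e-07). Retn, a defining marker, had 57.6 and 46.7 in RKIP-labelled, 87.2 and 71.9 in GRK-Inh and 75.4 and 82.3 in control hearts. It was lowest on the RKIP-labelled arrays and was not called. Lep and Cidec were below the filter and not tested. Lep had signals of at most 19.9. Cidec had 11.2 and 35.6 in RKIP-labelled, 33.5 and 54.5 in GRK-Inh and 55.0 and 55.7 in control hearts. Of the 3 brown adipocyte markers, Ucp1 and Elovl3 were below the filter, with signals of at most 45.1, and Cidea rose in RKIP-labelled hearts as given above. The summed signal of the 6 markers, most of it from Fabp4, was 19479 and 20443 in RKIP-labelled, 23226 and 23137 in GRK-Inh and 26512 and 25224 in control hearts.

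By main probe set, Mgll, Gpam, Lipe, Plin2 and Dgat2 had their lowest means in RKIP-labelled hearts, where Adipoq and Car3 were lowest too. The RKIP-labelled and control arrays of Dgat2 overlapped. The dimmer Dgat2 probe set had its lowest mean in GRK-Inh hearts (789, against 793 in RKIP-labelled hearts). Lipe, Plin2 and Dgat2 were not called in RKIP-labelled against control hearts, nor was Agpat2 (0.012 ± 0.072, adjusted p = 0.947). Pnpla2, Lpin1 and Plin3 were higher in RKIP-labelled hearts than in controls. Agpat2 fell in GRK-Inh hearts, where Fabp4 fell by its main probe set. Adipoq (0.16 ± 0.18, adjusted p = 0.626), Car3 (0.051 ± 0.070, adjusted p = 0.683) and Retn (0.0060 ± 0.18, adjusted p = 0.987) were not called there against control. The part of adipocytes in the values of Mgll, Gpam, Lipe, Plin2, Dgat2 and Agpat2 was not tested. Of all genes tested 5.51% fell in RKIP-labelled and 7.27% in GRK-Inh hearts against control. Fibroblast markers fell in both lines (3 of 4 in RKIP-labelled and 4 of 4 in GRK-Inh hearts), and 4 of 4 markers of smooth muscle and pericytes fell in RKIP-labelled and 2 of 4 in GRK-Inh hearts. Of the endothelial markers 1 of 4 fell in RKIP-labelled hearts and 0 of 4 was called in GRK-Inh hearts. Of the macrophage markers 1 of 4 and 2 of 4 fell. Their part in these results was not tested either.

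**Figure D5:**
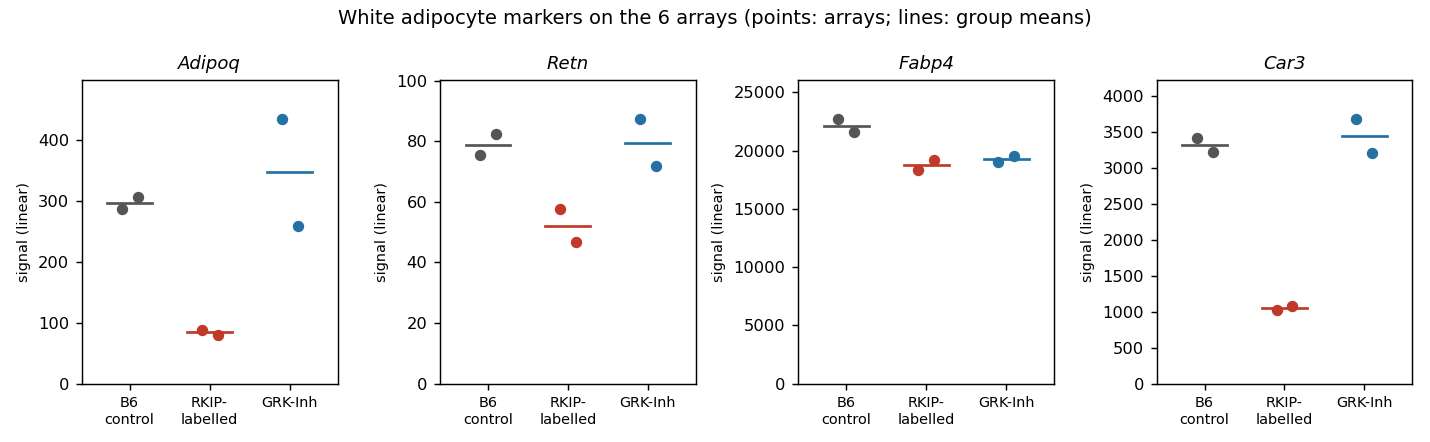
Signal (linear) of the 4 tested white adipocyte markers on the 6 arrays, with 1 point an array and a line at each group mean. Adipoq and Car3 are lowest on the RKIP-labelled arrays (80.8 to 88.8 and 1019 to 1073), and the GRK-Inh arrays of Adipoq, at 434 and 260, lie on both sides of the controls.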

How the data were processed

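Heart RNA was hybridised to 6 Affymetrix arrays, 2 in each of 3 groups read from the sample titles. The authors deposited a linear intensity for each of 45101 probe sets, made with GCOS (version not given) per the submitters' processing notes. On every array the 2% trimmed mean was 300.002. Of the probe sets, 64 were controls, 34945 had a single gene symbol, 932 had several and 9160 had none. Values were transformed as log2 of the intensity plus 50. The probe set of highest mean stood for each of 18193 genes, and the 11254 with a mean at or above the median over non-control probe sets (6.65, or 50.2 as a signal) entered the tests.

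A single limma (3.58.1, R 4.3.3) model held all 6 arrays, with 3 residual and 7.60 prior degrees of freedom and a variance trend. A call is a two-sided p under 0.05 after Benjamini-Hochberg adjustment over all genes tested. The number of arrays limits the precision (median SE 0.115). The procedure was also run on simulated data, as a check of the code and not of the calls given here. The 9 genes and all lists were chosen with earlier results of these data known. Named genes were the 9, the called genes of the pathway list (up to 8 a comparison), the 3 genes most like the member of widest range, and the marker of highest signal in a list. The defining adipocyte markers, Car3, Cidec and second probe sets were named outside this rule, after their values were seen. Alternatives changed the normalization, offset (16 and 200), filter (none and the 75th percentile), probe set rule, variance model, samples and replicate block, and left out each array. Plots used matplotlib 3.10.9 in Python 3.11.15.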

Additional observations from a re-analysis of the deposited data

Results flagged for a closer look

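The effects of the lines against the shared controls differed for 5 of the 9 genes, tested by the direct comparison of RKIP-labelled with GRK-Inh hearts (limma, adjusted over all genes), beside 8.82% of all genes. The log2 differences were 0.76 for Agpat2 and 0.32 for Pnpla2, both higher on 2 of 2 RKIP-labelled arrays. Those of Mgll (-0.69), Gpam (-0.22) and Lpin1 (-0.20) were lower on 2 of 2 RKIP-labelled arrays. Mgll had the opposite sign against control in the lines, whereas Lpin1 rose in both. The Agpat2 and Mgll differences were called under all 15 alternatives. That of Lpin1 was lost without each of the 4 arrays and without a variance trend, and that of Gpam without GRK-Inh array 1, with the mean of its probe sets and without a variance trend. That of Pnpla2 was lost without a variance trend and turned sign, to -0.050, with the mean of its probe sets.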

How the results depend on the processing

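Over 15 alternatives a comparison (14 for Lipe), the Agpat2 fall in GRK-Inh hearts (-0.78 to -0.63), the Lpin1 rise there (0.42 to 0.50), the Mgll fall in RKIP-labelled hearts (-0.46 to -0.36) and the Agpat2 and Mgll differences between the lines (0.64 to 0.80 and -0.73 to -0.48) kept direction and call. Of 417 values of the 9 genes under an alternative or from another probe set, 377 kept direction and side of the threshold, 20 lost the call, 9 gained it and 11 changed sign. Without a variance trend 297, 731 and 255 genes were called in the 3 comparisons, against 1219, 1477 and 993, and 2 members in RKIP-labelled against control hearts and 2 between the lines. With the mean of all probe sets 756 genes were called in RKIP-labelled against control hearts and 618 genes and 3 members between the lines, where no filter gave 617 genes. Leaving out 1 array gave 609 to 747, 901 to 940 and 476 to 546 genes, and 4 to 5, 2 to 3 and 3 to 5 members. With arrays shifted to one median 5 members were called in GRK-Inh against control hearts, since Dgat1 (adjusted p = 0.0368) and Pnpla2 (0.0485) passed. Quantile normalization and the filter at the 75th percentile also called Dgat1 there (0.0435 and 0.0464), and that filter, the arrays of the compared groups alone (0.0419) and the replicate block called Plin2 in RKIP-labelled against control hearts.

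With the mean of all probe sets signs turned for Pnpla2 (-0.16, -0.11 and -0.050 in the order of the comparisons), Dgat1 (-0.010, RKIP-labelled against control) and Dgat2 (-0.017, GRK-Inh against control). Pnpla2 and Dgat1 each have a further probe set below the filter. Dgat2 probe set 1422677_at gave -0.092 in GRK-Inh against control hearts and 0.0078 between the lines. With 1 array left out, Agpat2 ranged from -0.018 to 0.041 and Dgat2 from -0.052 to 0.015 in RKIP-labelled, and Lipe from -0.14 to 0.025 in GRK-Inh hearts, each against control and none called. Outside the 9, the Agpat3 sign turned in its further probe sets (-0.12, -0.15 and -0.15 against control in RKIP-labelled hearts, and -0.25, -0.33 and -0.39 between the lines) and in their mean (-0.17), and that of Fabp4 in probe set 1451263_a_at (0.087, GRK-Inh against control). These genes were added after seeing the data. The cause of the other changes was not tested.

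Same-numbered arrays of different groups did not deviate together (correlations of -0.035 to 0.026 over 11254 genes), so the numbers were not used as pairs. With the replicate block 5, 3 and 5 members were called in the 3 comparisons, with Plin2 at -0.41 (adjusted p = 0.0145) in RKIP-labelled against control hearts. Probe sets below the filter were not tested, which limits what these arrays show of them.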
